A study of Mus musculus with 6 samples.

Results

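Colon RNA of mice with colitis was examined for 10 genes of the enteroendocrine cells of the gut. They were taken by name from the deposited table of 18477 genes, as *Chga*, *Chgb*, *Tph1*, *Gcg*, *Pyy*, *Insl5*, *Sst*, *Cck*, *Nts* and *Neurod1*, and all 10 were present and passed the filter on low counts. The mice were male C57BL/6 animals aged 6 to 8 weeks, bought at that age, and all 6 drank 2% dextran sulfate sodium salt (DSS), which injures the colon lining, for the last 7 of 14 days. Mice of the DSS group (n = 3) received PBS by gavage once a day for 14 days, and mice of the DSS+BV group (n = 3) received the gut bacterium *Bacteroides vulgatus* (*B. vulgatus*) in PBS on the same days. Each mouse gave 1 library of whole colon tissue, and mice without DSS were not analysed here. The study asked what *B. vulgatus* changes in the inflamed colon, and for these genes the comparison asks whether hormone and serotonin transcripts differ between the groups.

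Enteroendocrine cells are scattered hormone-secreting cells of the gut epithelium. In the colon the most frequent kinds are enterochromaffin cells, which make serotonin with the enzyme encoded by *Tph1* and store it in granules rich in chromogranins, and L cells, which secrete peptides cut from the products of *Gcg*, *Pyy* and *Insl5*. D cells secrete somatostatin, and the cells arise from crypt progenitors that switch on *Neurog3* and then *Neurod1*. The mixture of hormones changes along the gut, with *Insl5* and *Pyy* typical of the distal colon and *Nts* and *Cck* of more proximal gut.

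None of the 10 genes passed the test across all genes. Of 14579 tested genes, edgeR's quasi-likelihood test called 13 (0.0892%) lower in DSS+BV mice and 0 (0%) higher, with a call needing an adjusted p under 0.05 and a log2 fold change beyond 1 in size. None of the 13 was among the 10 genes. At an unadjusted p under 0.05 the set held 1 gene of 10, *Nts*, which was higher, and over all tested genes 9.12% were lower and 3.4% higher at that level. DESeq2, which was also run, called 1.78% of its tested genes lower and 0.291% higher, and 0 of the 10. In each of the 10 genes the values of the groups overlapped, while 11.3% of all tested genes were lower in each DSS+BV mouse than in each DSS mouse and 6.37% were higher. The median log2 fold change of the 10 genes was 0.029, with 5 above 0 and 5 below, and that of all tested genes was -0.011. The values of single mice, within and across groups, are given gene by gene, in the order of the mouse numbers.

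Library totals were between 15293276 and 17254343 expected counts, and the 10 genes together took 0.0355% of the counts in DSS 2, the lowest share, and 0.0938% in DSS 3, the highest. The colon pieces differed in markers of position along the gut. The 6 measured posterior Hox genes, which mark the distal end of the gut, summed to 344, 58.9 and 192 CPM in the DSS mice and to 340.5, 166 and 13.97 CPM in the DSS+BV mice, where CPM is the count scaled to a common total with TMM factors. *Hoxb13* was the largest term of this sum except in DSS+BV 3, where it had no count, which allows up to 0.190 CPM there (3 counts). The lowest values of *Hoxd13*, 1.06 CPM and 0.0632 CPM, were also those of DSS 2 and DSS+BV 3, against 35.2 to 98.8 CPM in the other libraries. Not all 6 Hox genes ran this way. *Hoxa13* was highest in DSS 2 (21.0 CPM) and lowest in DSS+BV 3 (0.190 CPM), and *Hoxd10* and *Hoxd11* were lowest in DSS 2 (0.124 and 0.249 CPM) but second highest in DSS+BV 3 (8.41 and 5.31 CPM). Of 9 small intestinal enterocyte genes, 7 were highest in DSS+BV 3, among them *Apoa4* at 9.17 CPM there and at most 0.132 CPM elsewhere, while *Apob* was highest in DSS 2 (155 CPM) and *Fabp6* in DSS+BV 1 (7.26 CPM). The 16 enteric neuron markers summed to between 104 and 539 CPM in the DSS group, highest in DSS 3, and to between 64.2 and 82.4 CPM in the DSS+BV group. Epithelial markers were abundant in each library (summed 14751 to 24417 CPM), and the islet genes *Ins1* and *Ins2* had no count in any. Results are also given without DSS 2 and DSS+BV 3, the libraries with the lowest summed Hox level and the lowest *Hoxb13* and *Hoxd13*, a choice made after the values were seen. In tissue of this kind, fewer enteroendocrine cells and less RNA per cell cannot be told apart.

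**Figure D1:**
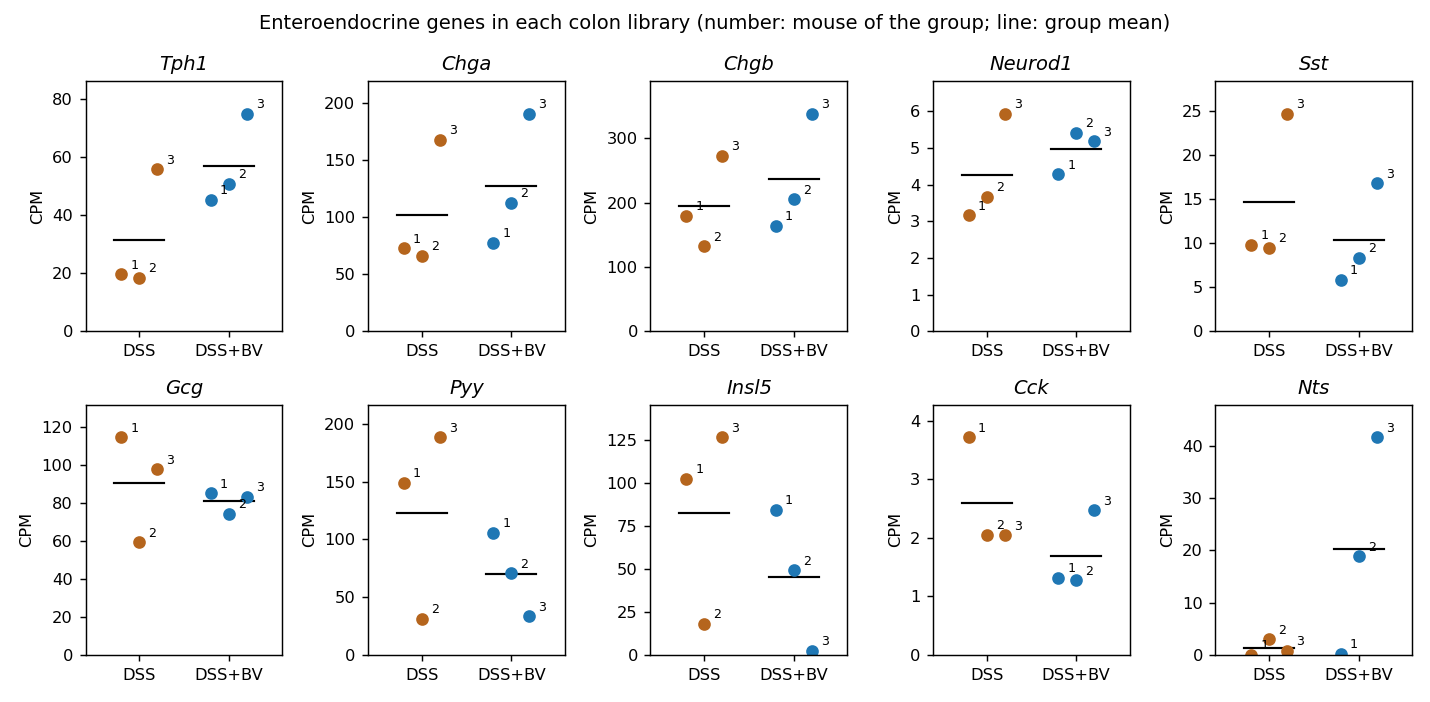
CPM (vertical axis, linear from 0) of the 10 genes in each library, with DSS mice in brown and DSS+BV mice in blue, numbered by mouse, and a line at the group mean. In every panel the groups overlap, and in the panels of *Pyy* and *Insl5* mouse 2 of the DSS group and mouse 3 of the DSS+BV group lie lowest in their group.

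Levels of different genes were compared per kilobase of merged exon (CPM per kb), with exon lengths from GENCODE M21. *Pyy* was the most abundant, at a mean of 153 CPM per kb over the 6 libraries (range 49.95 to 298.5). *Insl5* followed at 88.4 (3.49 to 175), *Chgb* at 78.7 (48.4 to 124), *Gcg* at 57.5 (39.8 to 76.8) and *Chga* at 41.6 (24.0 to 69.1) CPM per kb. *Sst* was at 17.4 (8.14 to 34.3), *Nts* at 8.63 (0.0480 to 33.4) and *Tph1* at 7.17 (2.98 to 12.2) CPM per kb, and *Neurod1* and *Cck* had the lowest means, at 1.69 and 1.64. The mean of *Nts* came from DSS+BV 2 and DSS+BV 3 (15.2 and 33.4 CPM per kb), and its median over the 6 libraries, 1.52 CPM per kb, was the lowest of the 10 genes. In 3 neighbouring pairs the first gene was higher in 6 of 6 libraries, namely *Pyy* over *Insl5* (mean log2 difference 1.28 ± 1.30, SD over 6 libraries), *Chga* over *Sst* (1.30 ± 0.47) and *Tph1* over *Neurod1* (1.94 ± 0.55). The spread of the first of these was as large as its mean. The other 6 neighbouring pairs did not differ beyond their spread, from *Chgb* over *Gcg* in 5 of 6 libraries (0.41 ± 0.48) to *Insl5* over *Chgb* in 3 of 6 and *Nts* over *Tph1* in 2 of 6. Spread also set the genes apart. The highest library was 1.93 times the lowest for *Gcg* and 1.87 times for *Neurod1*, but 50.1 times for *Insl5* and 696 times for *Nts*, where the lowest library held 1 count.

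In the enterochromaffin genes, *Tph1* encodes tryptophan hydroxylase 1, the rate-limiting enzyme of serotonin synthesis outside the brain. *Tph1* (Entrez gene 21990, chr7:46644641-46672537, GRCm38.p6) was at 19.8, 18.4 and 55.9 CPM in the DSS mice and at 45.4, 50.9 and 75.1 CPM in the DSS+BV mice. DSS 1 and DSS 2 lay below the DSS+BV mice, and DSS 3 lay between DSS+BV 2 and DSS+BV 3. The means were 31.4 ± 21.3 CPM and 57.1 ± 15.8 CPM (SD, n = 3 each), and the log2 fold change was 0.86 (standard error 0.47, 95% interval -0.25 to 1.98, edgeR adjusted p = 0.497, by the Benjamini-Hochberg method over all tested genes). Without DSS 3 it was 1.58, and without DSS 2 and DSS+BV 3 it was 0.35 (95% interval -0.97 to 1.67).

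*Chga* and *Chgb* encode chromogranins A and B, acidic proteins of the hormone granule that many enteroendocrine cells and some neurons make. *Chga* (Entrez gene 12652, chr12:102554941-102565027) was at 72.6, 66.3 and 168 CPM in the DSS mice and at 77.5, 113 and 190 CPM in the DSS+BV mice, in the order of their numbers. *Chgb* (Entrez gene 12653, chr2:132781642-132795079) was at 179, 133 and 273 CPM and at 164, 206 and 338 CPM. Both were highest in DSS+BV 3 and second highest in DSS 3, so 1 mouse of each group carried the high values. The log2 fold changes were 0.31 (95% interval -0.79 to 1.41) for *Chga* and 0.28 (95% interval -0.57 to 1.13) for *Chgb*, with edgeR adjusted p-values of 0.803 and 0.774. Without DSS+BV 3 they were -0.099 and -0.072, on the other side of 0.

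The ratio of 2 genes within a library does not depend on the total or on how many enteroendocrine cells the piece held if 1 cell type makes both. The log2 ratio of *Tph1* to *Chga* counts was -1.87, -1.85 and -1.58 in the DSS mice and -0.77, -1.14 and -1.34 in the DSS+BV mice. Each DSS+BV mouse thus had more *Tph1* per *Chga* than each DSS mouse. The difference in means was 0.68 on the log2 scale (-1.77 ± 0.16 against -1.09 ± 0.29, SD, n = 3 each), from 0.52 to 0.81 when 1 library was left out. The exact two-sided permutation test gave p = 0.1, the smallest value that 3 mice against 3 can give, and 0.6 after Benjamini-Hochberg adjustment over the 6 ratios tested, so it did not pass. The ratio of *Chgb* to *Chga* was 1.002 ± 0.30 and 0.93 ± 0.14 (SD, n = 3 each, difference -0.076, exact permutation p = 0.7, adjusted 0.84). The ratio of *Slc6a4*, the transporter that takes serotonin back up into enterocytes, to *Tph1* ran from -2.22 to -0.51 in the DSS mice and from -4.43 to -1.34 in the DSS+BV mice (difference -1.26, exact permutation p = 0.5, adjusted 0.84).

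**Figure D2:**
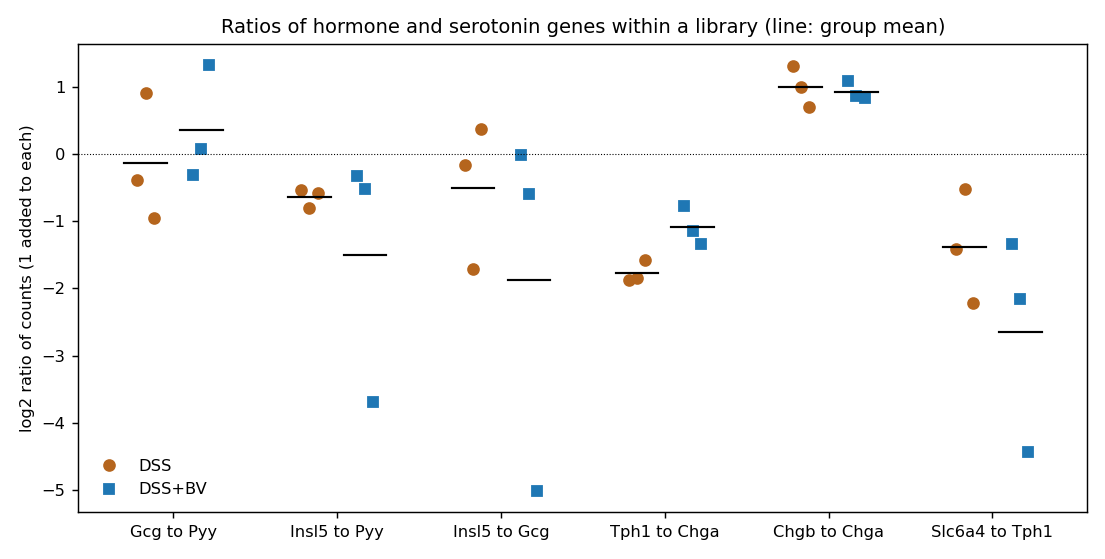
Log2 ratio of counts of 2 genes within each library (vertical axis, 1 added to each count) for 6 pairs, with DSS mice as brown circles, DSS+BV mice as blue squares and lines at the group means. Only for *Tph1* to *Chga* do the groups not overlap, and the lowest DSS+BV points for *Insl5* to *Pyy* and *Insl5* to *Gcg*, at -3.69 and -5.01, are DSS+BV 3.

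The other enzymes and carriers of serotonin showed no called gene. Of 12 tested genes of the supply, uptake and breakdown list, 0 were called by edgeR or DESeq2, the median log2 fold change was 0.21, and 9 were above 0 and 3 below. At an unadjusted edgeR p under 0.05, 1 was higher, against 3.4% of all tested genes. That gene was *Maoa*, the monoamine oxidase that breaks serotonin down, with means of 461 and 859 CPM in DSS and DSS+BV mice (log2 fold change 0.90, edgeR adjusted p = 0.394). *Maoa* was at 723 CPM in DSS 2 and 317 to 343 CPM in the other DSS mice, and its groups overlapped. The next by p-value were *Qdpr*, which recycles the cofactor of tryptophan hydroxylase (0.60), and the organic cation transporter *Slc22a3* (1.501), on the log2 fold change scale. *Ddc*, which makes the second step of serotonin synthesis, had a log2 fold change of 0.27, the vesicle carrier *Slc18a1* 0.14 and *Slc6a4* 0.023. *Tph2*, the tryptophan hydroxylase of neurons, had at most 1 count in a library. Mast cells can also express *Tph1*. Of 11 measured mast cell markers 7 were tested, with a median log2 fold change of -0.46, 5 below 0 and 2 above. The list summed to 52.6 to 137 CPM in the DSS mice and 72.9 to 107 CPM in the DSS+BV mice, and its largest term was *Kit* (92.9 CPM of the 137 CPM and 97.4 CPM of the 107 CPM), which the pacemaker cells of gut muscle express too. In DSS+BV 3, where *Tph1* was highest, *Kit* was at its highest. *Mcpt1*, *Mcpt2*, *Mcpt4*, *Cpa3*, *Cma1*, *Fcer1a*, *Ms4a2* and *Hdc* were at their lowest there, while *Tpsb2* was lowest in DSS 1 and *Gata2* in DSS 2. *Hdc*, which makes histamine, was at 6.28 to 9.67 CPM in the DSS mice and at 0.948 to 1.85 CPM in the DSS+BV mice (log2 fold change -2.45, edgeR adjusted p = 0.112, DESeq2 adjusted p = 7.87e-07). It was the 1 marker of the 7 tested that DESeq2 called, against 1.78% of its tested genes lower. Which cells made *Hdc* was not tested. These markers were chosen after their values were seen, and the part of mast cells in *Tph1* was not tested.

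L cells express *Gcg*, *Pyy* and *Insl5*. *Gcg* encodes proglucagon, from which L cells cut the incretin GLP-1 and the growth peptide GLP-2. *Pyy* encodes peptide YY, which slows gut transit and reduces appetite, and *Insl5* encodes an insulin-like peptide of distal colon L cells. Their upstream sequences are shown because the 3 genes are products of 1 cell type and yet spread differently between mice. The 150 bases before a transcript start are given 5′ to 3′ on the strand of the gene (all on the minus strand of GRCm38.p6, from RefSeq), at chr2:62483654-62483803 for *Gcg*, chr11:102107833-102107982 for *Pyy* and chr4:103026729-103026878 for *Insl5*. The *Insl5* transcript used starts 543 bases inside the annotated gene span, so its window lies within that span. Capitals mark CANNTG, the E-box core to which Neurod1 and other basic helix-loop-helix proteins can bind.
Gcg: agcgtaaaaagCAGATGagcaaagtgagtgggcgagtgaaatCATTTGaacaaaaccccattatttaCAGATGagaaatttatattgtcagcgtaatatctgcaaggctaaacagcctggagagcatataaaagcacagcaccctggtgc
Pyy: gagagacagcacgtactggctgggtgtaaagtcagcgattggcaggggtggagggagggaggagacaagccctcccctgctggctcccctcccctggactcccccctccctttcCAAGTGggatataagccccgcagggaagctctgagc
Insl5: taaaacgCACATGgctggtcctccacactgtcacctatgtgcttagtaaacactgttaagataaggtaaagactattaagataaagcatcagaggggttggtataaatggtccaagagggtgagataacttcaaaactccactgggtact

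The *Gcg* window held 3 such matches, starting 139, 108 and 83 bases before the start, and the *Pyy* and *Insl5* windows held 1 each, 36 and 143 bases before it. CANNTG reads the same on both strands, and 5 of the 10 genes had a match in this window, against 47.7% of 32851 RefSeq windows of this length. The letters TATAAA, searched on both strands, were in the *Gcg* and *Insl5* windows and in 7.57% of all windows. A match of letters says nothing of whether a protein was bound.

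*Gcg* (Entrez gene 14526, chr2:62474530-62483653) was at 115, 59.5 and 97.8 CPM in the DSS mice and at 85.3, 74.4 and 83.4 CPM in the DSS+BV mice. The DSS+BV mice lay within the range of the DSS mice and close together (90.6 ± 28.3 against 81.0 ± 5.81 CPM, SD, n = 3 each). The log2 fold change was -0.16 (standard error 0.24, 95% interval -0.74 to 0.42, edgeR adjusted p = 0.806). This interval, the narrowest of the 10 genes, did not reach a 2-fold difference in either direction.

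*Pyy* (Entrez gene 217212, chr11:102106676-102107832) was at 149, 31.5 and 188 CPM in the DSS mice and at 106, 70.8 and 33.3 CPM in the DSS+BV mice. *Insl5* (Entrez gene 23919, chr4:103017872-103027271) was at 103, 18.1 and 127 CPM and at 84.6, 49.5 and 2.53 CPM. DSS 2 and DSS+BV 3 were low for both genes, and DSS 3 was highest for both. In DSS+BV 3 *Insl5* rested on 40 counts, against 1283 and 777 in DSS+BV 1 and 2. The log2 fold changes were -0.82 for *Pyy* (95% interval -2.43 to 0.80, edgeR adjusted p = 0.646) and -0.86 for *Insl5* (95% interval -3.52 to 1.80, edgeR adjusted p = 0.776). Without DSS 2 and DSS+BV 3 they were -0.92 (95% interval -1.62 to -0.23, edgeR adjusted p = 0.398) and -0.76 (95% interval -1.55 to 0.033, edgeR adjusted p = 0.457). DSS 2 and DSS+BV 3 were the lowest of their group in both genes and were left out after the values were seen. That both DSS mice lay above both DSS+BV mice in the 4 libraries that remained is therefore a description only. Neither gene passed the threshold.

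The mice low in *Insl5* were those with the lowest summed Hox level. DSS 2, with 58.9 CPM of summed Hox genes, had 18.1 CPM of *Insl5*, and DSS+BV 3, with 13.97 CPM, had 2.53 CPM, while the libraries at 166 CPM or more of Hox genes had at least 49.5 CPM of *Insl5*. *Pyy* was at 31.5 and 33.3 CPM in these 2 libraries and at 70.8 CPM or more elsewhere. *Gcg* was lowest in DSS 2, but in DSS+BV 3, where *Insl5* was lowest, it was close to DSS+BV 1. The log2 ratio of *Insl5* to *Gcg* was 0.37 in DSS 3, -1.71 in DSS 2 and -5.01 in DSS+BV 3. The part of sampled position in these values was not tested. None of the 3 ratios among L cell genes differed between the groups beyond the spread of the mice (*Gcg* to *Pyy* 0.50, *Insl5* to *Pyy* -0.87 and *Insl5* to *Gcg* -1.37 as log2 differences, with exact permutation p-values of 0.5, 1 and 0.6, and adjusted values of 0.84, 1 and 0.84). Without DSS+BV 3 the last 2 differences were 0.22 and 0.20.

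**Figure D3:**
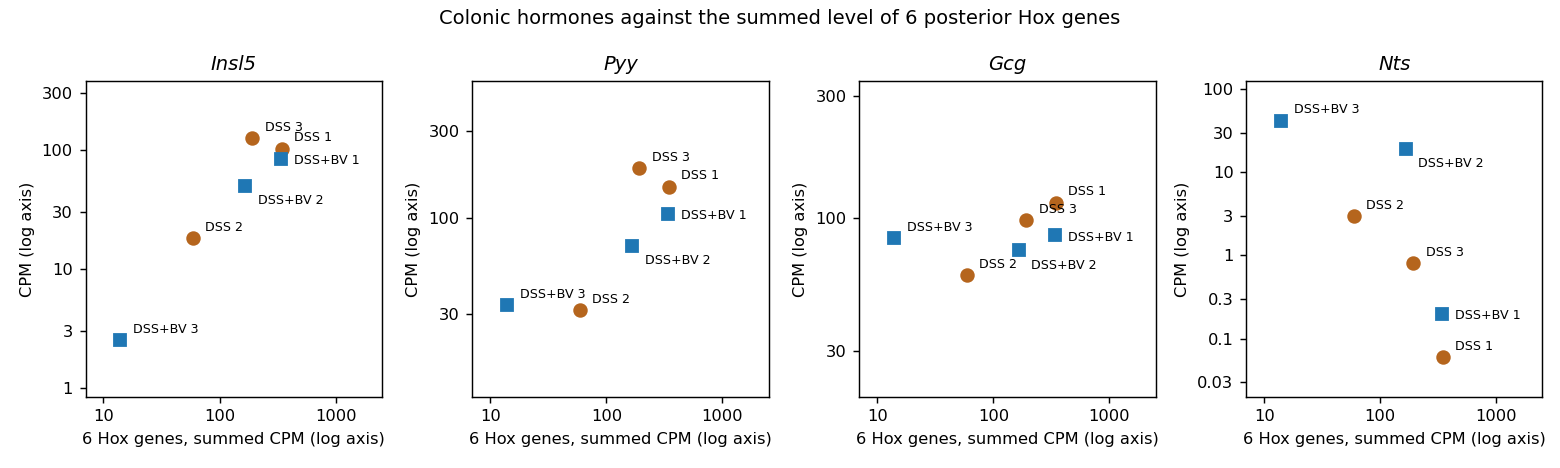
CPM of *Insl5*, *Pyy*, *Gcg* and *Nts* (vertical axes, log scale) against the summed CPM of 6 posterior Hox genes (horizontal axis, log scale) in each library, with DSS mice as brown circles and DSS+BV mice as blue squares. *Insl5* is at 49.5 CPM or more in the 4 libraries highest in Hox genes and at 18.1 and 2.53 CPM in the others, *Gcg* stays between 59.5 and 115 CPM, and *Nts* is highest, at 41.7 CPM, where the Hox genes are lowest.

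*Sst* encodes somatostatin, the D cell peptide that inhibits the release of other hormones, and enteric neurons make it too. *Sst* (Entrez gene 20604, chr16:23889573-23891342) was at 9.82, 9.51 and 24.7 CPM in the DSS mice and at 5.87, 8.35 and 16.8 CPM in the DSS+BV mice. It was highest in DSS 3, followed by DSS+BV 3, the same mice that were highest in *Chga* and *Chgb*. The log2 fold change was -0.51 (95% interval -1.77 to 0.76, edgeR adjusted p = 0.718), from -1.04 without DSS+BV 3 to 0.10 without DSS 3. DSS 3 was also the library with the most neuron marker RNA, at 539 CPM summed over 16 markers against 104 and 204 CPM in the other DSS mice, and the part of neurons in *Sst* was not tested.

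The upstream windows of *Sst* (chr16:23890845-23890994, minus strand) and *Chgb* (chr2:132781492-132781641, plus strand) are shown because both carry the letters TGACGTCA, the palindromic cAMP response element, in capitals. The *Sst* transcript used starts 498 bases inside the annotated gene span, so its window lies within that span. The motif began 48 bases before the start in *Sst* and 72 bases before it in *Chgb*.
Sst: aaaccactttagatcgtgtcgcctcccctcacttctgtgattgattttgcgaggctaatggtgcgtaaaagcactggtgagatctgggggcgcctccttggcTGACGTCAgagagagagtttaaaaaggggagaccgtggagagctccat
Chgb: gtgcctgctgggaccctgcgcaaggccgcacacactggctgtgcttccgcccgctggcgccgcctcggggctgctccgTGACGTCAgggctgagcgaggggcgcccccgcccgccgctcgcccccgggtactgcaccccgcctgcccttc

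This motif was in 2 of the 10 windows and in 1.36% of the 32851 windows. The 2 genes shared their highest libraries, DSS 3 and DSS+BV 3, with *Chga* and with *Tph1*, and the *Tph1* window held no match. The *Chga* window held TGACGTAA and the *Nts* window TGACATCA, near matches that the search for the exact letters did not count. *Nts* was highest in DSS+BV 3 and DSS+BV 2, and in DSS 3 it was at 0.815 CPM. The part of this motif in these levels was not tested.

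*Nts* encodes neurotensin, a peptide of N cells, which are most frequent in the ileum. *Nts* (Entrez gene 67405, chr10:102481756-102490418) was at 0.0599, 2.98 and 0.815 CPM in the DSS mice and at 0.198, 18.9 and 41.7 CPM in the DSS+BV mice. The counts behind these values were 1, 48, 14, 3, 297 and 659, so for DSS 1 an exact Poisson interval, which covers counting error only, ran from 0.0253 to 5.57 counts. DSS+BV 1 lay among the DSS mice, and DSS+BV 2 and 3 lay above all of them. The log2 fold change of 3.98 (standard error 1.65, 95% interval 0.039 to 7.91) had an unadjusted p of 0.0483 in edgeR's quasi-likelihood test and did not pass after adjustment (edgeR adjusted p = 0.398, and 0.262 with DESeq2). With 1 library left out it ran from 2.90 to 5.50, and without DSS 2 and DSS+BV 3 it was 4.42 (95% interval -0.89 to 9.73). Within each group the mouse with the lowest summed Hox level was the highest in *Nts*, and DSS+BV 2, at 166 CPM of Hox genes, was above DSS 2, at 58.9 CPM. The small intestinal enterocyte genes summed to 32.9, 391 and 173 CPM in the DSS mice and to 99.1, 405 and 477 CPM in the DSS+BV mice, most of it *Fabp2* and *Apob*. Over all libraries of both groups their order was that of *Nts*, and the part of small intestinal RNA in *Nts* was not tested.

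The upstream window of *Nts* (chr10:102490419-102490568, minus strand) is shown because *Nts* was the most variable of the 10 genes. It held none of the 3 searched motifs.
Nts: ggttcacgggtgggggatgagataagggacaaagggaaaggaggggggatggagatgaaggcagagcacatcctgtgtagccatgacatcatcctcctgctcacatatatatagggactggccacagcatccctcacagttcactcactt

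*Cck* encodes cholecystokinin, a peptide of I cells of the upper small intestine and of neurons, and had the lowest mean CPM per kb of the 10 genes. *Cck* (Entrez gene 12424, chr9:121489824-121495694) was at 3.71, 2.05 and 2.04 CPM in the DSS mice and at 1.32, 1.27 and 2.47 CPM in the DSS+BV mice, from 20 to 62 counts. DSS+BV 3 lay among the DSS mice and the other DSS+BV mice below them. The log2 fold change was -0.62 (95% interval -1.64 to 0.40, edgeR adjusted p = 0.580). The annotation places the gene Gm38661 across the same locus, and whether strand was used in counting is not given in the sources used here.

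*Neurod1* encodes the basic helix-loop-helix factor that follows *Neurog3* in the enteroendocrine lineage. *Neurod1* (Entrez gene 18012, chr2:79452637-79456636) was at 3.17, 3.67 and 5.94 CPM in the DSS mice and at 4.29, 5.42 and 5.18 CPM in the DSS+BV mice, 53 to 102 counts. DSS 3 was above the DSS+BV mice and the other DSS mice were below them. The log2 fold change was 0.22 (95% interval -0.53 to 0.97, edgeR adjusted p = 0.797). *Neurog3*, the progenitor factor before it, had 7, 13 and 0 counts in the DSS mice and 7, 27 and 33 counts in the DSS+BV mice (log2 fold change 1.79, standard error 1.01, edgeR adjusted p = 0.510), and these counts give little precision.

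**Figure D4:**
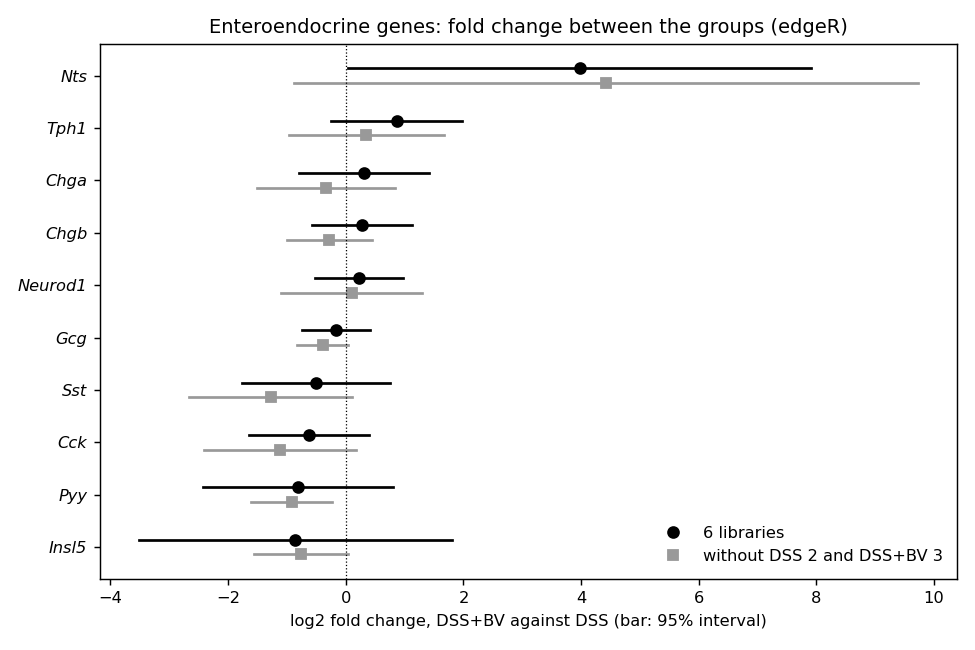
Log2 fold change (DSS+BV against DSS, horizontal axis) of the 10 genes with 95% intervals, from 6 libraries (black circles) and without DSS 2 and DSS+BV 3 (grey squares). With 6 libraries each interval includes 0 except that of *Nts*, which starts at 0.039, and no gene passed adjustment over all genes in either fit.

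Around these genes, 7 lists of the enteroendocrine and serotonin systems held 125 genes, of which 97 were tested. EdgeR called 0 of the 97, with 20 lower (20.6%, against 9.12% of all tested genes) and 5 higher (5.15%, against 3.4%) at an unadjusted p under 0.05. DESeq2 called 4, all lower (4.12%, against 1.78%), which were *Pcsk2*, *Tac1*, *Penk* and *Htr3a*. The groups did not overlap in the lower direction for 15 genes (15.5%, against 11.3% of all tested genes) and in the higher direction for 4 (4.12%, against 6.37%).

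Transcription factors of the lineage were centred near 0, with a median log2 fold change of -0.024 over 20 tested genes, 11 below 0 and 9 above. The smallest p-values belonged to the co-repressor *Runx1t1* (-1.17, edgeR adjusted p = 0.287), *Tox3* (0.95, edgeR adjusted p = 0.363) and *Foxa1* (0.51, edgeR adjusted p = 0.397), all as log2 fold changes. *Foxa1* is expressed across the epithelium and was at 46.1 to 78.8 CPM in the DSS mice and at 81.3 to 85.9 CPM in the DSS+BV mice.

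Granins, prohormone processing enzymes and vesicle genes had a median of -0.73 over 26 tested genes, 21 below 0 and 5 above, and 8 (30.8%, against 11.3% of all tested genes) were lower in each DSS+BV mouse than in each DSS mouse. The prohormone convertase *Pcsk2* was at 3.29, 6.09 and 14.2 CPM in the DSS mice and at 0.857, 1.21 and 1.77 CPM in the DSS+BV mice (log2 fold change -2.61, edgeR adjusted p = 0.245, DESeq2 adjusted p = 0.00292). The secretogranin *Scg2* was at 11.1, 19.3 and 52.8 CPM and at 8.77, 8.54 and 8.28 CPM (log2 fold change -1.70, edgeR adjusted p = 0.340). The peptide-amidating enzyme *Pam* averaged 303 ± 16.1 CPM in DSS mice against 174 ± 65.1 CPM in DSS+BV mice (SD, n = 3 each, log2 fold change -0.80, edgeR adjusted p = 0.342). *Pcsk1*, the convertase that L cells use on proglucagon, differed by 0.55 ± 0.56 (log2 fold change and its standard error). Many genes of this list are also neuronal. All 16 enteric neuron markers had a log2 fold change below 0 (median -1.81), and 5 tested glial markers had a median of -0.93. Of the 16, edgeR called 0 and DESeq2 7, against 0.0892% and 1.78% of their tested genes lower. At an unadjusted edgeR p under 0.05, 14 were lower, against 9.12% of all tested genes. Without DSS 3, the library highest in neuron markers, the medians were -0.28 for the granin and vesicle list and -0.97 for the neuron list. The part of neurons in the granin and vesicle list was not tested.

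Of the other gut peptides, 6 of 9 measured genes were tested, with a median of -1.44 (-0.75 without DSS 3), 4 below 0 and 2 above. *Tac1*, the substance P precursor made by enterochromaffin cells and neurons, was at 95.1, 26.2 and 140 CPM in the DSS mice and at 28.5, 18.3 and 9.42 CPM in the DSS+BV mice (log2 fold change -2.22, edgeR adjusted p = 0.323, DESeq2 adjusted p = 0.0171). *Penk*, the enkephalin precursor of neurons and some epithelial cells, was at 11.4, 29.7 and 75.5 CPM and at 8.91, 8.98 and 8.85 CPM (log2 fold change -2.12, edgeR adjusted p = 0.323, DESeq2 adjusted p = 0.0215). *Ppy*, the pancreatic polypeptide gene beside *Pyy* on chromosome 11, was at 15.7, 5.91 and 42.3 CPM and at 7.72, 5.35 and 1.07 CPM (log2 fold change -2.18, edgeR adjusted p = 0.394). *Ppy* was lowest in each group in the mouse that was lowest in *Pyy*.

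Of 13 measured serotonin receptors 5 were tested, with a median of -2.01 (-1.05 without DSS 3) and 4 below 0. The receptor *Htr4* had levels of 16.8, 45.7 and 5.65 CPM in the DSS mice and at 43.8, 29.9 and 17.7 CPM in the DSS+BV mice, and was the gene above 0 (log2 fold change 0.42). It was named once its values were known. The channel subunit *Htr3a* was at 5.63, 11.2 and 34.2 CPM in the DSS mice and at 1.52, 2.99 and 2.66 CPM in the DSS+BV mice (log2 fold change -2.83, edgeR adjusted p = 0.279, DESeq2 adjusted p = 0.00209). Its partner subunit *Htr3b* (-2.24, edgeR adjusted p = 0.371) and the G protein-coupled receptor *Htr7* (-2.01, edgeR adjusted p = 0.318) also had groups that did not overlap. These 3 of 5 tested receptors were lower in each DSS+BV mouse than in each DSS mouse, against 11.3% of all tested genes. *Htr3a* is expressed by enteric neurons, and it was highest in DSS 3, as the neuron markers were.

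Among receptors and peptidases that read or cut the hormones, 14 of 21 measured genes were tested, with a median of -0.067. At an unadjusted edgeR p under 0.05, 1 was lower and 1 higher, against 9.12% and 3.4% of all tested genes. *Dpp4*, the peptidase that inactivates GLP-1, was at 35.6 to 39.6 CPM in the DSS mice and at 45.6 to 63.6 CPM in the DSS+BV mice (log2 fold change 0.49, 95% interval 0.10 to 0.87, edgeR adjusted p = 0.345). The cholecystokinin receptor *Cckar* had a log2 fold change of -1.37 (edgeR adjusted p = 0.388) and the peptide YY receptor *Npy1r* of -0.88 (edgeR adjusted p = 0.5001). *Glp2r*, the GLP-2 receptor, differed by -0.12 ± 0.33 (log2 fold change, DSS+BV against DSS, and its standard error). *Glp1r* had at most 6 counts in a library and *Rxfp4*, the receptor of the *Insl5* peptide, at most 3, and neither was tested.

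The 16 tested sensors of nutrients and bacteria had a median of 0.29, with 11 above 0 and 5 below. The groups did not overlap for 1 of the 16 in the lower direction, against 11.3% of all tested genes. In the higher direction they did not overlap for 2, against 6.37%. The lipopolysaccharide receptor *Tlr4* was lower in each DSS+BV mouse (66.2 ± 10.4 against 43.8 ± 6.90 CPM, SD, n = 3 each; log2 fold change -0.60, edgeR adjusted p = 0.329), and the glucose carrier *Slc5a1* was higher in each (111 ± 21.8 against 164 ± 40.6 CPM; log2 fold change 0.57, edgeR adjusted p = 0.394). The cannabinoid receptor *Cnr1*, which neurons express, had a log2 fold change of -1.66 (edgeR adjusted p = 0.414). *Ffar2*, the short-chain fatty acid receptor of L cells and leukocytes, differed by 0.29 ± 0.56 (log2 fold change and its standard error).

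**Figure D5:**
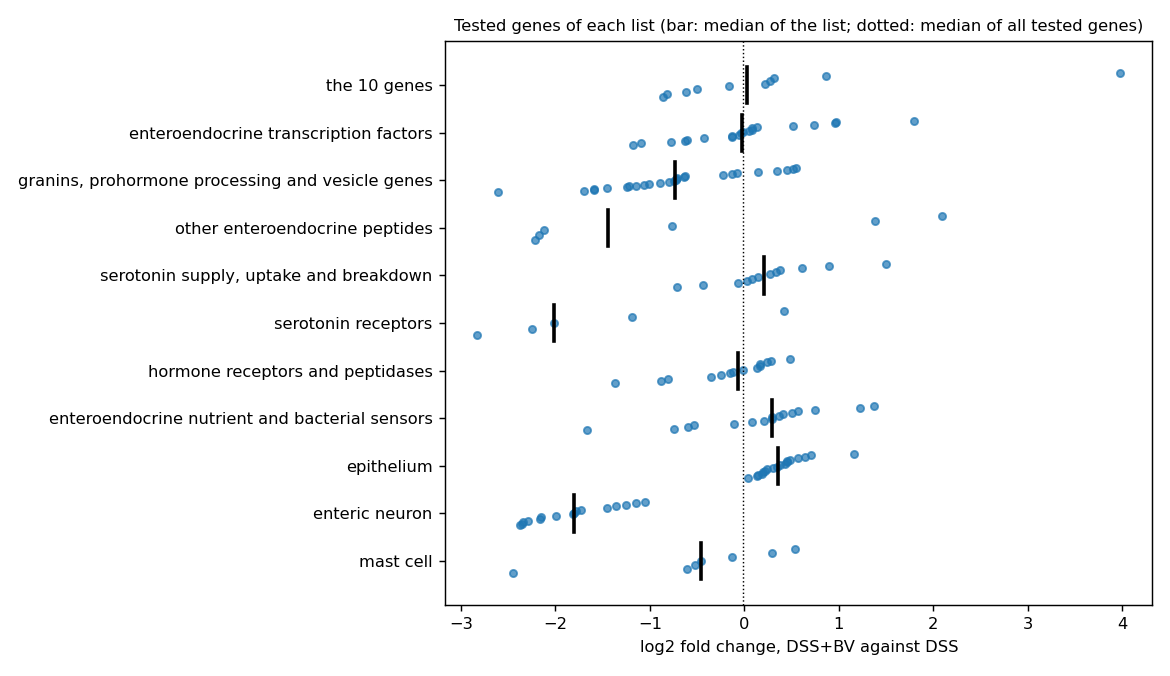
Log2 fold change (DSS+BV against DSS, horizontal axis) of each tested gene (points) in the set of 10 genes and in 10 lists of other genes, with a bar at the median of each list and a dotted line at the median of all tested genes, -0.011. The 10 genes lie on both sides of the line, the 18 epithelial markers lie above 0 and the 16 enteric neuron markers lie below 0.

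All 18 epithelial markers had a log2 fold change above 0 (median 0.36), with 0 called by edgeR or DESeq2. When libraries were scaled to these markers, the median of all tested genes moved from -0.011 to -0.42, and that of the 10 enteroendocrine genes from 0.029 to -0.39. This scaling moves all genes by about the same amount.

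The mean profile of the 10 genes over the 6 libraries (mean of centred log2 CPM) was 0.51 in DSS 3, 0.29 in DSS+BV 2, 0.27 in DSS+BV 3, -0.23 in DSS 1, -0.33 in DSS+BV 1 and -0.52 in DSS 2. Each gene counts equally in this mean, so *Nts*, with a 696-fold range, and *Insl5*, with a 50.1-fold range, move it most. A mean without these genes was not computed. The 8 other genes with the most similar profile, by Pearson's r over 6 libraries, ran from *Bbip1* (0.979) to *Dapk3* (0.941) and included *Ndufs5*, *Zdhhc4*, *Sgk1*, *Plekha3*, *Pomp* and *Snx11*. None of the 8 is an enteroendocrine gene of the lists. With 6 libraries and 14579 genes these values are a description only.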

How the data were processed

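Colon RNA of 6 mice was sequenced. The authors quantified genes with RSEM and deposited expected counts per gene, not scaled between libraries. The submitters' processing notes name HISAT2 2.1.0, Bowtie2 2.2.5, RSEM 1.2.8 and GRCm38.p6. All values of the 10 genes were whole numbers. RSEM divides reads that match several genes, which can move counts between similar genes.

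Here, expected counts were rounded, filtered with filterByExpr (minimum count 10, minimum total 15), and scaled with TMM factors. EdgeR 4.0.16 (R 4.3.3) gave the quasi-likelihood test, and p-values of the 14579 genes kept were adjusted by the Benjamini-Hochberg method. Standard errors were derived from the F statistic. DESeq2 1.42.0 was an alternative, and the study used another version of it. Totals were 15293276 to 17254343 expected counts. Replicates within a group differed by more than counting noise (chi-square per degree of freedom 42.7 to 118). The fit was tested on simulated data first. Ratios added 1 count to each gene. Samples were grouped by title.

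Named genes were the 10 genes, up to 3 genes with the smallest p-values in each of 7 lists, and 11 genes fixed for their roles, with defining markers of other cell types and positions. *Tph2* and the single markers were picked after their values were seen. The genes and lists were chosen with earlier results of these data known. Upstream windows and gene positions came from RefSeq (GRCm38.p6), and all 10 genes were matched. Alternatives were other scalings, filters and tests, and libraries left out.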

Additional observations from a re-analysis of the deposited data

How the results depend on the processing

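The count of lower genes stayed between 11 and 13, and that of higher genes at 0, with RLE or upper-quartile factors, library totals, other filters or a robust fit. With DESeq2 281 genes were lower and 46 higher, and the cause was not tested. With 1 library left out, between 0 and 3 were lower and between 0 and 4 higher, and without DSS 2 and DSS+BV 3, a choice made after seeing the data, 0 were lower and 0 higher. Of the 10 enteroendocrine genes, 0 were called in any of these. With the replicate number as a block 0 genes were called, and the numbers did not pair the mice, since same-numbered deviations correlated at 0.27, 0.25 and -0.30 and DSS 2 correlated best with DSS+BV 3 (0.48).

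The direction of some fold changes turned. With 1 library left out, *Gcg* ran from -0.37 to 0.041, *Sst* from -1.04 to 0.098, *Chga* from -0.099 to 0.87 and *Chgb* from -0.072 to 0.60. Scaled to the epithelial markers, *Chga* was -0.11, *Chgb* -0.15 and *Neurod1* -0.19, where the median of all genes was -0.42. Without DSS 2 and DSS+BV 3, *Chga* was -0.33 and *Chgb* -0.28. In each case the gene was not called in either fit, and the cause was not tested. The median of the set ran from -0.15 to 0.32 with 1 library left out. Depth limited *Neurog3* and the low *Nts* values.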

Other observations

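The following 3 enteroendocrine genes were chosen after their values were seen. *Isl1*, a factor of L and D cells, was at 5.57, 1.74 and 6.17 CPM in the DSS mice and at 4.02, 1.78 and 0.506 CPM in the DSS+BV mice, in the order of their numbers, lowest in each group where *Insl5* was lowest. *Sct*, which encodes secretin, was at 3.41, 1.49 and 5.18 CPM and at 1.65, 12.1 and 12.6 CPM, and *Iapp*, which encodes amylin, at 0.359, 0.0622 and 0.757 CPM and at 0.198, 1.85 and 3.10 CPM. Both were highest in DSS+BV 2 and DSS+BV 3, the libraries with the most *Nts*.

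As a share of the summed CPM of the 10 genes, *Tph1* was 3.02%, 5.34% and 5.93% in the DSS mice and 7.90%, 8.51% and 9.51% in the DSS+BV mice. This share was computed after the ratio of *Tph1* to *Chga* had been seen and rests on the same counts, so it is no independent support. *Insl5* was 0.320% of the sum in DSS+BV 3 and between 5.25% and 15.7% in the other libraries.

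Lists not described above had median log2 fold changes of -3.04 for 10 neutrophil genes, 0.062 for 10 goblet cell genes, -0.23 for 9 smooth muscle genes, 1.28 for 5 tested small intestinal enterocyte genes and -0.17 for the 6 posterior Hox genes. Of 10 pancreas genes, 1 was tested, *Cela1*, with a log2 fold change of 0.24.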
